A study of Arabidopsis thaliana with 18 samples.

Results

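Root cap identity and root cap shedding were followed through 7 genes in root tips of Arabidopsis thaliana seedlings. They are the NAC transcription factor genes SMB (AT1G79580), BRN1 (AT1G33280), BRN2 (AT4G10350) and FEZ (AT1G26870), the cellulase genes CEL3 (AT1G71380) and CEL5 (AT1G22880), and the root cap polygalacturonase gene RCPG (AT1G65570). The genes were chosen by locus for their known roles, with earlier results of these data known, and they are 7 of the 22093 loci in the deposited count table. BRN2 lies on chromosome 4 and the other members on chromosome 1. All 7 passed the expression filter that left 16354 genes for testing.

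The 18 libraries were read from transcript 3′ ends in 7 groups. L-Kyn (L-kynurenine) blocks the making of auxin from tryptophan and was given at 100 µM. Mock cut tips have 3 libraries at 3 h and 2 at 6 h after the cut, and L-Kyn cut tips have 2 libraries at 3 h and 3 at 6 h of treatment. L-Kyn uncut tips have 3 libraries at 3 h and 2 at 6 h, and mock uncut tips have 3 libraries with no time given. Seedlings were 7 days old in all groups, and the cut was placed 120 µm above the quiescent centre, the group of slowly dividing cells at the middle of the stem cell niche. The genotype, the number of tips in a library and the order of cut and L-Kyn treatment are not stated in the sources used here. The design asks how cutting and L-Kyn, alone and together, change transcript levels in the tip.

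The root cap is a layer of short-lived cells around the root tip that protects the meristem, senses gravity and is renewed from stem cells next to the quiescent centre. FEZ promotes the divisions of these stem cells, and SMB, which acts against FEZ, promotes the maturation of their daughters. BRN1 and BRN2 act with SMB in maturation and are known for the detachment of the outer cap cells, and SMB is also known for the death of lateral root cap cells. CEL3 and CEL5 loosen cell walls by cutting cellulose and are linked to the release of cap cells, and RCPG cuts pectin, the glue between cells, and is a known target of BRN1.

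A library held between 1280947 and 4839810 reads on genes, and 3 counts, the floor used here, correspond to 0.620 to 2.29 CPM (counts scaled to library size with TMM factors). CPM counts transcript ends and is used here to compare a gene between libraries, not genes with each other. The libraries fall into 2 sets by their order in the table. Set A is made up of every 6 h library with mock uncut replicates 1 and 2, and set B of every 3 h library with mock uncut replicate 3, so time and set cannot be told apart in the cut and L-Kyn tips. A library, L-Kyn cut 3 h replicate 2 by its label, goes against that label and is called the doubted library here. Over all genes its Spearman correlation was 0.808 to 0.879 with the other cut libraries of set B and 0.914 to 0.975 with the uncut libraries of set B. It is left unchanged in its group, and the calls on the members are given with and without it. L-Kyn uncut 6 h replicate 1 is uncut by its title and cut by its source field. The title was used, and its correlation was 0.934 to 0.951 with the other uncut libraries of set A and 0.894 to 0.911 with the cut ones.

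**Figure D1:**
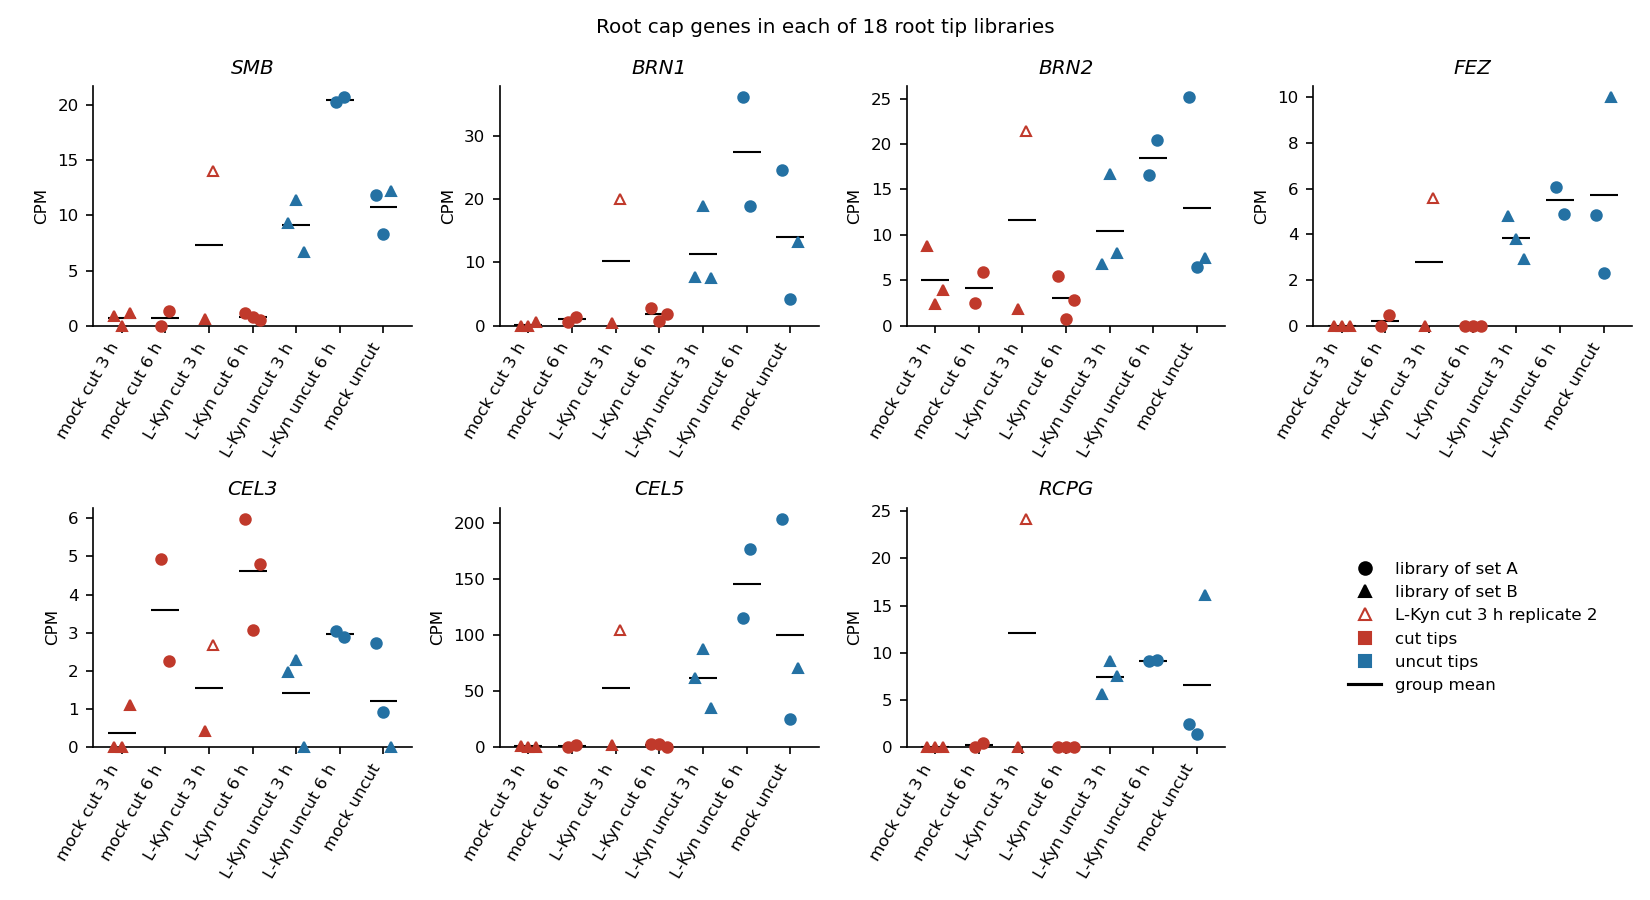
Level of each of the 7 genes in CPM (linear axes, a separate scale for each gene) in every library, by group. Points are libraries, circles set A and triangles set B, red cut and blue uncut, black lines are group means, and the open triangle is the doubted library, labelled L-Kyn cut 3 h replicate 2. Apart from that library, SMB, BRN1, FEZ, CEL5 and RCPG lie lower in every cut library than in every uncut library, BRN2 is lower with 1 cut library among the uncut ones, and CEL3 overlaps. The share of all genes with such a gap over these libraries is not given here.

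In mock cut tips at 3 h, 4 of the 7 genes were lower than in mock uncut tips, namely SMB, BRN1, FEZ and CEL5 (edgeR quasi-likelihood test with Benjamini-Hochberg adjustment over all genes, threshold 0.05). By the same rule 5.9% of all genes tested were lower. With the doubted library left out of the estimate of the spread, RCPG was lower too, which made 5 of 7, against 7.16% of all genes. No member was higher in either fit, where 3.99% and 5.26% of all genes were. For 5 members every mock cut library was below every mock uncut one, which held for 12.6% of all genes. All mock cut 3 h libraries are of set B, as is mock uncut replicate 3, while the other mock uncut libraries are of set A. Within set B the log2 fold changes were -4.04 for SMB, -5.81 for BRN1, -0.55 for BRN2 and -6.25 for CEL5, and fewer members passed the test. The cut was placed above the quiescent centre, next to which the cap stem cells lie. Cap cells taken away by the cut and less of an RNA per cap cell cannot be told apart in these libraries, and neither was tested.

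SMB, the maturation regulator, had 0.92, 0 and 1.12 CPM in mock cut tips at 3 h, against 11.8, 8.31 and 12.2 CPM in mock uncut tips. Every cut library was thus far below every uncut one. The log2 fold change was -3.86 ± 0.92 (SE, adjusted p = 0.0165 by edgeR, and 0.00117 without the doubted library). Pooled over libraries, 4 counts in mock cut tips stood against 95 in mock uncut tips, which is 6.42% of the uncut level with an exact 95% counting interval of 1.71% to 17.0%.

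BRN1 was at 0, 0 and 0.56 CPM in mock cut tips at 3 h, against 24.6, 4.15 and 13.2 CPM in mock uncut tips. A single count in mock cut tips stood against 131 in mock uncut tips. Its log2 fold change was -6.00 ± 1.34 (SE, adjusted p = 0.0122 by edgeR, and 0.000611 without the doubted library), and 1.16% of the uncut level was left, with an interval of 0.03% to 6.60%. The fold change was -5.33 without mock uncut replicate 1 and -8.36 without mock cut 3 h replicate 3, which holds the only count.

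BRN2, the near relative of BRN1, was much less reduced. It had 8.75, 2.41 and 3.90 CPM in mock cut tips at 3 h, against 25.2, 6.46 and 7.41 CPM in mock uncut tips. The highest cut library lay above the lower uncut ones, and the difference did not pass the test (log2 fold change -1.35 ± 0.75 SE, adjusted p = 0.253 by edgeR, and 0.152 without the doubted library). The pooled level was 38.1% of that in mock uncut tips, with an interval of 24.6% to 57.2%, and 76.0% (45.4% to 126%) without mock uncut replicate 1. The 3 h libraries belong to set B, and the mock uncut library of that set was at 7.41 CPM, so that within set B the log2 fold change was -0.55.

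FEZ, the regulator of cap stem cell divisions, had 0 counts in all 3 mock cut libraries at 3 h, against 4.85, 2.31 and 9.99 CPM in mock uncut tips. With a floor of 3 counts over the cut group it was at least 11.4-fold lower (adjusted p = 0.0276 by edgeR, and 0.00542 without the doubted library). That bound takes the uncut level as measured, and the two-sided exact interval, which also covers counting error in mock uncut tips, reaches 11.2% of the uncut level. The bound was 7.20-fold without mock uncut replicate 3, and 6.98-fold without mock cut 3 h replicate 1.

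Of the wall enzyme genes, CEL5 was called with and without the doubted library, RCPG only without it, and CEL3 in neither fit. A difference between these genes was not tested. CEL5 showed the smallest p of the 7 genes in this comparison. It had 1.38, 0.60 and 0.56 CPM in mock cut tips at 3 h, against 203, 25.4 and 70.6 CPM in mock uncut tips. The mock uncut libraries themselves spread widely, yet the lowest of them was far above every cut library. The log2 fold change was -6.76 ± 1.20 (SE, adjusted p = 0.00485 by edgeR, and 2.43e-05 without the doubted library), with 5 counts in mock cut tips against 945 in mock uncut tips, or 0.806% of the uncut level (interval 0.261% to 1.89%). Mock uncut replicate 1 held 671 of those 945 counts. Without it the log2 fold change was -5.71 (adjusted p = 0.0176 by edgeR) and 1.71% of the uncut level was left (0.551% to 4.04%).

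RCPG had 0 counts in all mock cut libraries at 3 h, against 2.43, 1.38 and 16.1 CPM in mock uncut tips. This made it at least 13.3-fold lower, and the call depended on the doubted library (adjusted p = 0.054 by edgeR with it in the fit and 0.00889 without it). Among mock uncut tips both low libraries were in set A, and the high one, mock uncut replicate 3, was the only one in set B. L-Kyn uncut tips were not split that way, with 9.11 and 9.20 CPM in set A and 5.66, 9.10 and 7.53 CPM in set B. A part of the set in this spread was not tested. Without mock uncut replicate 3 the bound was 3.77-fold and the adjusted p by edgeR was 0.149. The exact interval with all 3 mock uncut libraries reaches 9.50% of the uncut level.

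CEL3 had 0, 0 and 1.12 CPM in mock cut tips at 3 h, against 2.73, 0.92 and 0 CPM in mock uncut tips. These are 2 counts against 11, the groups overlap, and no difference was detectable at this depth (log2 fold change -1.68 ± 1.45 SE, adjusted p = 0.476 by edgeR, and 0.464 without the doubted library). With a term for the set the fitted change was 3.20, of the other sign, since the mock uncut library of set B had no count.

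Of the calls at 3 h, only that of CEL5 held in each of the 6 fits that left out a mock cut or mock uncut library. Without mock cut 3 h replicate 1 it was the only member called, against 1.99% of all genes lower, with SMB at an adjusted p of 0.0521. Without mock cut 3 h replicate 2, BRN1 and CEL5 were called, against 3.08% of all genes, and SMB was at 0.0568. In the other 4 fits the count was 4, against 2.19% to 9.55% of all genes. The members' median log2 fold change was -3.74 with FEZ and RCPG at their bounds, against -0.02 over all genes tested.

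At 6 h after the cut the levels were again low, but fewer genes passed the test. No member was called in mock cut tips at 6 h against mock uncut tips by edgeR, and no gene of 16354 was (0%), although 819 genes were lower and 775 higher at an unadjusted p under 0.05, 5 members among them. DESeq2 called 1 member lower, against 0.11% of all genes. With the doubted library left out, SMB (adjusted p = 0.0352) and CEL5 (0.00165) were lower, 2 of 7 against 0.142% of all genes, and no member was higher, against 0.183%. For 6 of 7 members every 6 h cut library was below every uncut one, which held for 15.3% of all genes tested, and the 7th member, CEL3, overlapped.

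SMB had 0 and 1.35 CPM in mock cut tips at 6 h, which is 7.05% of the mock uncut level with an interval of 1.43% to 21.2%. BRN1 had 0.62 and 1.35 CPM, or 6.82% (1.83% to 17.9%). BRN2 had 2.46 and 5.87 CPM, or 31.6% (17.8% to 52.8%). The order of these relatives, with BRN2 keeping the largest share of its uncut level, was thus seen at both times, though both comparisons share the mock uncut libraries.

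FEZ and RCPG each had 1 count over both mock cut libraries at 6 h, at 0 and 0.45 CPM for either gene. CEL5 had 0.62 and 1.81 CPM in mock cut tips at 6 h, or 1.18% of the mock uncut level (0.383% to 2.77%). CEL3 had 4.93 and 2.26 CPM in mock cut tips at 6 h, against 2.73, 0.92 and 0 CPM in mock uncut tips. Its pooled level was 264% of that in mock uncut tips with a counting interval of 109% to 650%, but the libraries overlap and the difference did not pass the test (adjusted p = 0.692 by edgeR).

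Between mock cut tips at 6 h and at 3 h no member was called in either direction, where 0.055% of all genes were lower and 0.575% higher, nor without the doubted library, where 0.177% were lower and 0.915% higher. DESeq2 called none either, where 0.465% of all genes were lower and 1.33% higher. By edgeR 1 member had an unadjusted p under 0.05. That was CEL3 (adjusted p = 0.383 by edgeR), whose 4.93 and 2.26 CPM at 6 h lay above the 0, 0 and 1.12 CPM at 3 h. BRN1 was also higher without overlap, on 4 counts at 6 h against 1 at 3 h. Such a gap between the libraries was found for 18.2% of all genes.

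**Figure D2:**
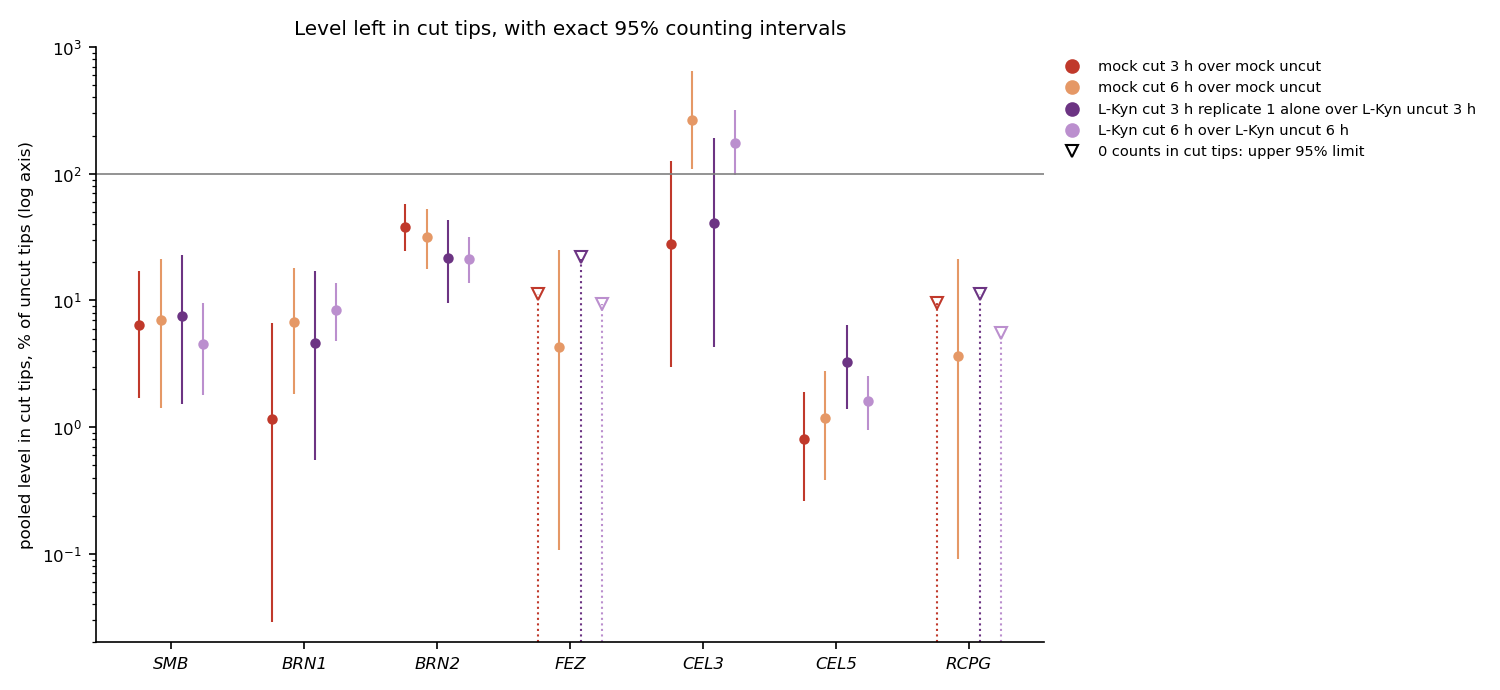
Pooled level of each gene in cut tips as a percentage of the matching uncut tips (log axis), with exact 95% counting intervals as vertical lines and the grey line at 100%. Open triangles are upper limits where cut tips had 0 counts. The L-Kyn 3 h points are replicate 1 alone, and the doubted library is not plotted. Among the points shown, CEL5 sits between 0.806% and 3.24%, SMB between 4.51% and 7.60%, BRN2 between 21.3% and 38.1%, and the CEL3 points at 6 h lie above 100%.

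In L-Kyn tips at 6 h, every cut library was below every uncut one for 6 members, which held for 20.3% of all genes. Against L-Kyn uncut tips at 6 h, SMB and CEL5 were lower by edgeR, 2 of 7 members, where 0.263% of all genes were lower. Without the doubted library 5 were lower (SMB, BRN1, FEZ, CEL5 and RCPG), against 1.56% of all genes, and BRN2 just missed the threshold at an adjusted p of 0.0508. In each of these fits no member was higher, where 0.342% and 1.75% of all genes were.

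SMB had 1.20, 0.76 and 0.48 CPM in L-Kyn cut tips at 6 h, against 20.2 and 20.7 CPM in L-Kyn uncut tips. The log2 fold change was -4.46 ± 0.88 (SE, adjusted p = 0.0399 by edgeR), and 4.51% of the uncut level was left (1.78% to 9.56%), or 2.88% without L-Kyn cut 6 h replicate 1. Without the doubted library its adjusted p was 0.000807. BRN1 had 2.87, 0.76 and 1.92 CPM in L-Kyn cut tips against 36.1 and 19.0 CPM in L-Kyn uncut tips, or 8.36% (4.76% to 13.8%). Its adjusted p was 0.0664 with all libraries and 0.0045 without the doubted one.

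BRN2 had 5.50, 0.76 and 2.88 CPM in L-Kyn cut tips at 6 h, against 16.5 and 20.4 CPM in L-Kyn uncut tips. Its groups do not overlap here, and 21.3% of the uncut level was left (13.8% to 31.9%, adjusted p = 0.132 with all libraries). FEZ had 0 counts in all 3 L-Kyn cut libraries, against 6.07 and 4.89 CPM in L-Kyn uncut tips, at least 13.7-fold lower (exact interval up to 9.46% of the uncut level). Its adjusted p was 0.0786 with all libraries and 0.0121 without the doubted one.

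CEL5 had 3.11, 3.06 and 0.48 CPM in L-Kyn cut tips at 6 h, against 115 and 176 CPM in L-Kyn uncut tips. The log2 fold change was -5.97 ± 1.08 (SE, adjusted p = 0.0276 by edgeR), with 1.60% of the uncut level left (0.946% to 2.55%), or 0.994% without L-Kyn cut 6 h replicate 1. Without the doubted library its adjusted p was 9.00e-05. RCPG had 0 counts in all L-Kyn cut libraries, against 9.11 and 9.20 CPM in L-Kyn uncut tips, at least 23.1-fold lower (exact interval up to 5.49% of the uncut level, adjusted p = 0.095 with all libraries and 0.0116 without the doubted one). Both enzymes thus had all their cut libraries at the bottom of their range.

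CEL3 again stood apart. It had 5.98, 3.06 and 4.80 CPM in L-Kyn cut tips at 6 h, against 3.04 and 2.87 CPM in L-Kyn uncut tips. All 3 cut libraries were above both uncut ones, as for 19% of all genes, though the nearest pair was almost level. The difference did not pass the test (log2 fold change 0.68 ± 1.07 SE, adjusted p = 0.802 by edgeR), and the counting interval of its pooled level, 98.5% to 320% of the uncut one, includes no change.

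These calls at 6 h rest on few libraries. Leaving out L-Kyn cut 6 h replicate 1, 2 or 3 or L-Kyn uncut 6 h replicate 2 left no member called, against 0% to 0.0252% of all genes lower. Leaving out L-Kyn uncut 6 h replicate 1, whose labels conflict, left CEL5 (adjusted p = 0.0455), against 0.0355% of all genes. The fold changes themselves kept their sign in these 5 fits, with CEL5 between -6.51 and -5.54 and SMB between -4.98 and -4.21.

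At 3 h the L-Kyn cut tips were split. L-Kyn cut 3 h replicate 1 had values like those of mock cut tips, with SMB at 0.63, BRN1 at 0.42, BRN2 at 1.89, CEL3 at 0.42 and CEL5 at 1.68 CPM and with FEZ and RCPG at 0. The doubted library, labelled L-Kyn cut 3 h replicate 2, had values at the level of uncut tips, with SMB at 14.0, BRN1 at 20.0, BRN2 at 21.5, FEZ at 5.58, CEL3 at 2.69, CEL5 at 104 and RCPG at 24.2 CPM. RCPG was higher in it than in all 8 uncut libraries, and its summed level of the 7 genes, 192 CPM, lay within the uncut range of 48.9 to 275 CPM.

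With both libraries no member was called in L-Kyn cut against L-Kyn uncut tips at 3 h by edgeR, and no gene was (0%), with 24 genes lower and 468 higher at an unadjusted p under 0.05 and no member among them. DESeq2 called no member, where 0% of all genes were lower and 0.349% higher. With replicate 1 alone, which was assumed to vary like the other groups, SMB (adjusted p = 0.0398), BRN1 (0.0473) and CEL5 (0.0124) were lower, 3 of 7 against 0.579% of all genes, and none was higher, against 1.42%. In that library SMB stood at 7.60% of the pooled L-Kyn uncut level at 3 h (1.54% to 23.0%), BRN1 at 4.61% (0.549% to 17.1%), BRN2 at 21.7% (9.60% to 43.2%) and CEL5 at 3.24% (1.39% to 6.43%). FEZ and RCPG, with no count in it, were at least 5.92-fold and 11.2-fold lower than in L-Kyn uncut tips, with the uncut level taken as measured. Their exact intervals reach 21.9% and 11.3% of that level.

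L-Kyn without a cut left no member called. At 3 h of L-Kyn, no member and no gene (0%) was called against mock uncut tips by edgeR, where 979 genes were lower and 501 higher at an unadjusted p under 0.05, no member among them. The fit with the doubted library left out called no member either, where 0.0118% of all genes were lower and 0.00591% higher. CEL5 had the lowest adjusted p (0.825), at 61.9, 88.0 and 34.7 CPM in L-Kyn uncut tips, against 203, 25.4 and 70.6 CPM in mock uncut tips. For all 7 genes the libraries of both groups overlapped, while 7.87% of all genes were lower and 7.61% higher without overlap.

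At 6 h of L-Kyn again no member and no gene (0%) was called against mock uncut tips, with 840 genes lower and 553 higher at an unadjusted p under 0.05, no member among them. No member was called when the doubted library was left out, where 0% of all genes were lower and 0.0295% higher. DESeq2 called no member in either of these comparisons. It called 0.593% of all genes lower and 0.128% higher at 3 h, and 0.147% lower and 0.202% higher at 6 h. SMB was at 20.2 and 20.7 CPM in L-Kyn uncut tips at 6 h, above the 11.8, 8.31 and 12.2 CPM in mock uncut tips. Its log2 fold change was 0.91 ± 0.70 (SE, adjusted p = 0.725 by edgeR). CEL3, at 3.04 and 2.87 CPM in L-Kyn uncut tips against 2.73, 0.92 and 0 CPM in mock uncut tips, was the other member without overlap, as were 12.2% of all genes on the higher side. The log2 fold changes of the 7 genes lay between -0.08 and 1.21.

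Among cut tips, L-Kyn made no difference that passed the test. At 6 h no member and no gene (0%) was called in L-Kyn cut against mock cut tips by edgeR, with 582 genes lower and 681 higher at an unadjusted p under 0.05, no member among them. DESeq2 called no member, where 0.0734% of all genes were lower and 0.22% higher, and the libraries of all 7 genes overlapped. Of all genes tested, 19% were lower and 16.4% higher without overlap. The count of members called by edgeR was also 0 when the doubted library was left out, where 0.0118% of all genes were higher. CEL5 at 3.11, 3.06 and 0.48 CPM in L-Kyn cut tips stood against 0.62 and 1.81 CPM in mock cut tips, a pooled level of 182% with an interval of 65.3% to 629%. SMB was at 118% of the mock cut level (27.0% to 709%) and BRN2 at 89.4% (47.8% to 173%), so that the counts leave room for sizeable differences either way.

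At 3 h no member was called in L-Kyn cut against mock cut tips either (0% of all genes, with 420 lower and 862 higher at an unadjusted p under 0.05, 5 members among them), but DESeq2 called 2 members higher, against 0.183% of all genes. When L-Kyn cut 3 h replicate 1 was left out, so that only the doubted library stood for its group, 5 members were called higher, against 1.48% of all genes. Without the doubted library instead, the smallest adjusted p of a member was 1. The test of whether the cut effect differed between L-Kyn and mock tips called no member and no gene (0%) at 3 h or at 6 h, with a lowest adjusted p of a member of 0.211 at 3 h and 1.00 at 6 h by edgeR. Without the doubted library it called no member either. DESeq2 gave 0 members too, against 0.0306% of all genes lower and 0.0978% higher at 3 h and 0% either way at 6 h. At an unadjusted p under 0.05 that test gave 495 genes lower and 1073 higher at 3 h, with 5 members among them, and 177 lower and 242 higher at 6 h, with no member. At 3 h it called 5 members higher without L-Kyn cut 3 h replicate 1, against 0.962% of all genes, and 1 member higher without mock uncut replicate 3, against 0.445%.

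The groups with the highest and second highest means were the same for SMB, BRN1, BRN2 and CEL5, while the order below them differed for BRN2. L-Kyn uncut tips at 6 h had the highest mean, with 20.5 ± 0.316 CPM for SMB, 27.5 ± 12.1 for BRN1, 18.5 ± 2.74 for BRN2 and 146 ± 43.0 for CEL5 (SD, n = 2). Mock uncut tips came next, with 10.8 ± 2.16, 14.0 ± 10.2, 13.0 ± 10.5 and 99.8 ± 92.6 CPM for the same genes (SD, n = 3). Of these neighbours, only the SMB libraries did not overlap. L-Kyn uncut tips at 3 h followed for 3 of these genes, with 9.13 ± 2.35 CPM for SMB, 11.4 ± 6.57 for BRN1 and 61.5 ± 26.6 for CEL5 (SD, n = 3), and overlapped mock uncut tips.

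For FEZ the means of mock uncut tips (5.72 ± 3.91 CPM, SD, n = 3), L-Kyn uncut tips at 6 h (5.48 ± 0.84, n = 2) and L-Kyn uncut tips at 3 h (3.84 ± 0.94, n = 3) were close, and the first overlapped the others. RCPG was at 9.15 ± 0.0609 CPM in L-Kyn uncut tips at 6 h (SD, n = 2), 7.43 ± 1.72 in L-Kyn uncut tips at 3 h (n = 3) and 6.64 ± 8.22 in mock uncut tips (n = 3). Its mock uncut libraries lay on both sides of the L-Kyn libraries. In the 9 cut libraries other than the doubted one, FEZ and RCPG had 1 count each, in mock cut 6 h replicate 2, so that the order of cut groups cannot be read for them.

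CEL3 had another order, with L-Kyn cut tips at 6 h highest (4.61 ± 1.47 CPM, SD, n = 3), then mock cut tips at 6 h (3.59 ± 1.89, n = 2) and L-Kyn uncut tips at 6 h (2.96 ± 0.115, n = 2). Mock uncut tips (1.22 ± 1.39, n = 3) and mock cut tips at 3 h (0.372 ± 0.644, n = 3) were lowest. The 3 highest groups are the 6 h groups, all of set A.

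The balance between relatives was compared within each library, where the scaling between libraries cancels. These ratios were chosen after their values were seen and are given as descriptions with no test. The log2 ratio of BRN2 to BRN1 counts, with 0.5 added to each, averaged 1.78 ± 1.60 in 10 cut libraries and -0.18 ± 0.55 in 8 uncut libraries (SD). The difference was 1.96, and 2.15 without the doubted library. It was 1.09 within set A (5 cut and 4 uncut libraries) and 3.45 within set B without the doubted library (4 cut and 4 uncut libraries). Ratios of low counts depend on what is added, and with 1 added to each count the difference was 1.68.

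In counts, BRN2 gave 86 of the 110 reads on both BRN genes in the 9 cut libraries without the doubted one (78.2%, between 50% and 100% in single libraries), against 45.3% in the 8 uncut libraries (31.4% to 60.9%). The highest ratios were those of mock cut tips at 3 h, and the L-Kyn cut libraries at 6 h, at 0 to 0.91, were in part within the range of the uncut libraries. The doubted library, at 0.10, lay among the uncut ones.

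CEL3 and CEL5 differed more. The log2 ratio of CEL3 to CEL5 counts averaged -0.41 ± 2.47 in 10 cut libraries and -6.09 ± 1.63 in 8 uncut libraries (SD). The difference was 5.68, and 6.21 without the doubted library. It was 6.72 within set A and 5.42 within set B without the doubted library. With 1 added to each count, over all libraries, it was 5.41. CEL3 gave 56 of 92 reads on both genes in the 9 cut libraries (60.9%, between 0% and 90.9% in single libraries), against 1.64% in uncut libraries (0% to 3.51%), where CEL5 had 2401 counts and CEL3 40. Most of these reads came from the 6 h cut libraries, with 52 of 75 reads on CEL3 (69.3%), while the 3 h cut libraries without the doubted one had 4 of 17 (23.5%).

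**Figure D3:**
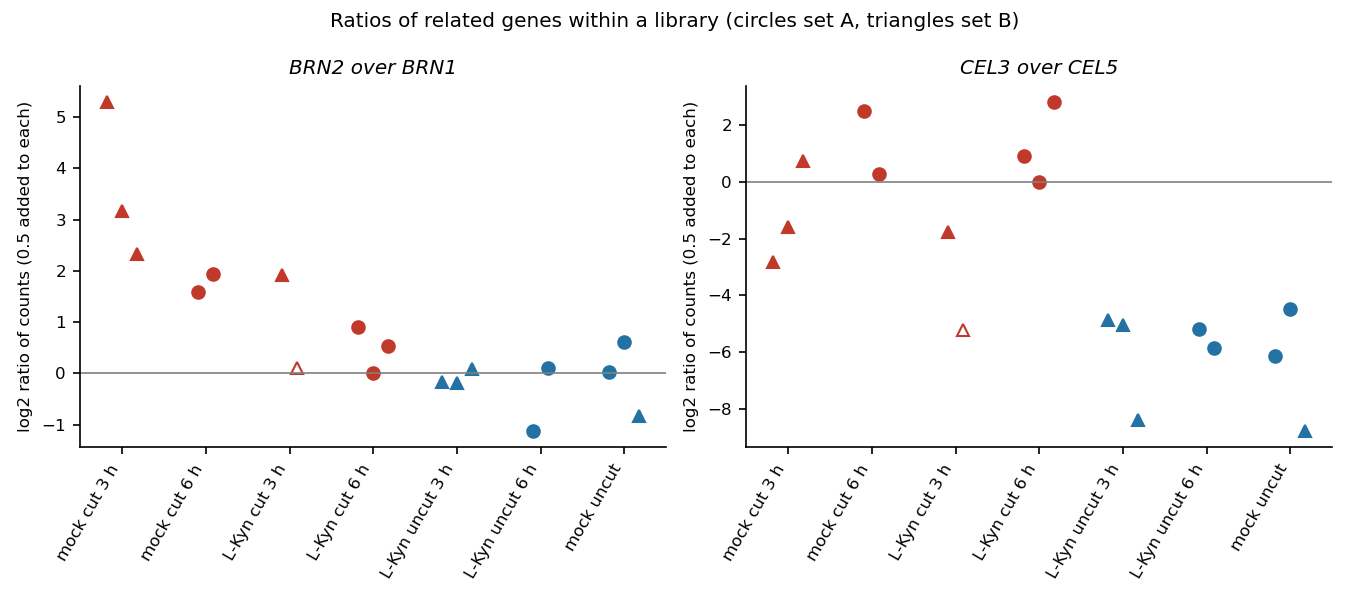
Log2 ratio of BRN2 to BRN1 counts (left) and of CEL3 to CEL5 counts (right), 0.5 added to each count, in every library by group, with circles for set A, triangles for set B, red for cut, blue for uncut and an open triangle for the doubted library. The CEL3 to CEL5 ratio of every other cut library, at -2.81 or more, lies above all uncut libraries, which reach -4.47, while the BRN2 to BRN1 ratio of L-Kyn cut tips at 6 h overlaps that of uncut tips. Mock cut 3 h replicates 1 and 2 had 0 CEL3 counts, against 3 and 1 of CEL5, so their CEL3 to CEL5 ratios rest on the 0.5 added.

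Among the 8 uncut libraries the members did not all vary together. On log2 CPM over these libraries, Pearson's r was 0.89 for BRN2 with CEL5, 0.87 for BRN1 with CEL5, 0.84 for BRN1 with BRN2 and 0.80 for SMB with BRN1. FEZ with RCPG gave 0.67, RCPG with BRN1 0.41, RCPG with BRN2 0.04 and RCPG with CEL3 -0.22. CEL3 gave 0.71 with BRN2, 0.67 with CEL5, 0.61 with SMB, 0.56 with BRN1 and -0.03 with FEZ. The libraries share sets and scaling, so these values describe 8 libraries and carry no test. CEL5 ranged from 25.4 CPM in mock uncut replicate 2 to 203 CPM in mock uncut replicate 1, which are labelled as replicates of the same group.

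Genes most like the members were sought over the 18 libraries by Pearson's r of log2 CPM among 10228 genes that average at least 10 CPM. RGF3, which encodes a peptide hormone of the root meristem, was nearest to SMB (r = 0.973) and second nearest to FEZ (0.965) and CEL5 (0.970). AT1G50060 was nearest to FEZ (0.968) and RCPG (0.929) and second nearest to BRN1 (0.951), for which AT5G54370 was nearest (0.953). AT1G10530 was nearest to CEL5 (0.977) and AT1G34110 to BRN2 (0.868). CEL3 was nearest to UTR2 (0.856), a nucleotide sugar transporter gene, and GSTU7 (0.846), a glutathione transferase gene. Neither of them was nearest or second nearest to another member. RGF3 averaged 0.351 CPM in the 9 cut libraries without the doubted one and 72.5 CPM in the 8 uncut libraries. AT5G54370, the gene nearest to the mean of all members (r = 0.960), averaged 29.2 CPM in those cut libraries and 304 CPM in uncut ones. Apart from UTR2 and GSTU7, the genes named share the contrast of cut with uncut libraries with the members, and the likeness carries no test. UTR2 averaged 54.5 CPM in those cut libraries and 47.9 CPM in uncut ones, and GSTU7 123 and 121 CPM.

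Other genes of the root cap, from lists written with earlier results of these data known, were mixed. Of 8 genes for cap stem cells and their signals, 7 were tested in mock cut against mock uncut tips at 3 h. In that comparison 5.9% of all genes tested were lower and 3.99% higher. PLT1, an auxin-responsive stem cell regulator, was lower (1.21 ± 2.09 against 28.9 ± 6.39 CPM, SD, n = 3 each, adjusted p = 0.013 by edgeR, and 0.000196 without the doubted library). WOX5, the regulator that marks the quiescent centre, was higher (21.7 ± 7.37 against 1.32 ± 1.37 CPM, adjusted p = 0.0116, and 0.00153 without that library), and so was ARF16, an auxin response factor gene of cap development (18.7 ± 15.3 against 4.27 ± 1.81 CPM, adjusted p = 0.0231, and 0.0167 without it). The list's median log2 fold change was -0.41, against -0.02 over all genes tested.

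Of 8 genes for gravity sensing in the columella, the central part of the cap, all were tested and 2 were lower at 3 h, against 5.9% of all genes. These were the loci AT1G17400 (0 counts in mock cut tips, against 3.45 ± 1.50 CPM in mock uncut tips) and AT1G19115 (0.832 ± 0.733 against 5.17 ± 0.782 CPM). PIN3, an auxin efflux carrier of columella cells, was at 46.6 ± 21.4 CPM in mock cut and 96.9 ± 45.2 CPM in mock uncut tips (SD, n = 3 each, adjusted p = 0.135 by edgeR). The list's median was -1.05. Of the cap cell death genes, 2 of 8 were tested and none was called by edgeR with all libraries, while SCPL48, a carboxypeptidase gene, was lower without the doubted library (2.61 ± 0.723 against 9.78 ± 4.70 CPM, adjusted p = 0.0408). BFN1, a nuclease gene of dying cap cells, averaged under 0.5 CPM in the mock cut and mock uncut groups and was not tested.

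Other genes of the members' families were called in both directions. Of 22 other cellulase genes of the same family (GH9), 10 were tested at 3 h. Of these 2 were lower and 2 higher, against 5.9% and 3.99% of all genes, and their median log2 fold change was 0.42. KOR1, a membrane-bound cellulase of cell wall synthesis, was higher (178 ± 61.8 CPM in mock cut and 91.3 ± 13.1 CPM in mock uncut tips, SD, n = 3 each, adjusted p = 0.048 by edgeR), as was GH9B8 (22.1 ± 10.7 against 3.61 ± 3.37 CPM). CEL1 (26.9 ± 2.84 against 64.8 ± 23.7 CPM) and GH9B6 (0 counts against 4.29 ± 4.73 CPM) were lower. Of 8 other polygalacturonase genes 2 were tested, and the locus AT1G48100 was higher (6.75 ± 4.39 against 0.154 ± 0.266 CPM, adjusted p = 0.0132). Of 10 VND and NST genes, NAC factors of wood and fibre cells that are relatives of SMB and the BRN genes, 2 were tested, with a median log2 fold change of 0.44 and no adjusted p under the threshold in edgeR.

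At 6 h fewer of these genes were called. In mock cut against mock uncut tips none of the 6 lists had a call with all libraries, as for all genes, while PLT1 was lower without the doubted library (adjusted p = 0.00607 by edgeR). In L-Kyn cut against L-Kyn uncut tips PLT1 was lower (0.829 ± 0.606 CPM, SD, n = 3, against 33.4 ± 0.931 CPM, n = 2, adjusted p = 0.0399 by edgeR, and 0.000308 without the doubted library). WOX5 was then at 2.39 ± 1.72 CPM in L-Kyn cut and 0.337 ± 0.477 CPM in L-Kyn uncut tips (adjusted p = 0.345). KOR1 was at 163 ± 15.3 CPM in L-Kyn cut and 73.8 ± 5.94 CPM in L-Kyn uncut tips (adjusted p = 0.101 with all libraries and 0.0481 without the doubted one).

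Markers of other cells were summed in each library. Of the meristem markers, PLT1 and WOX5 are also on the list for cap stem cells and their signals. The summed level of 7 meristem markers was 7.18 to 34.4 CPM in the 9 cut libraries, 157 CPM in the doubted library and 90.8 to 257 CPM in the 8 uncut libraries. At 3 h in mock tips 5 of the 7 markers were lower (PLT1, RGF2, RGF3, CYCB1;1 and CYCB1;4) and 1, WOX5, was higher, against 5.9% and 3.99% of all genes. At 6 h PLT1, RGF2 and RGF3 were lower in mock cut tips in the fit without the doubted library, against 0.142% of all genes. The summed level of 5 markers of elongating and mature root was 6.12 to 49.7 CPM in the 9 cut libraries and 0.862 to 12.1 CPM in the uncut ones, and none of the 3 tested was called at 3 h. On that list EXP7 and CASP1 had 0 counts in mock cut tips at 3 h, while COBL9 was at 2.39 ± 2.14 CPM in mock cut and 0.202 ± 0.350 CPM in mock uncut tips (SD, n = 3 each). The 4 markers of green tissue summed to 52.8 to 370 CPM in set A and 5.89 to 18.2 CPM in set B. All 4 were lower in mock cut tips at 3 h (5.9% of all genes were) than in mock uncut tips, where the set A libraries are the high ones. The part of these markers' cells in the results on the cap genes was not tested.

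**Figure D4:**
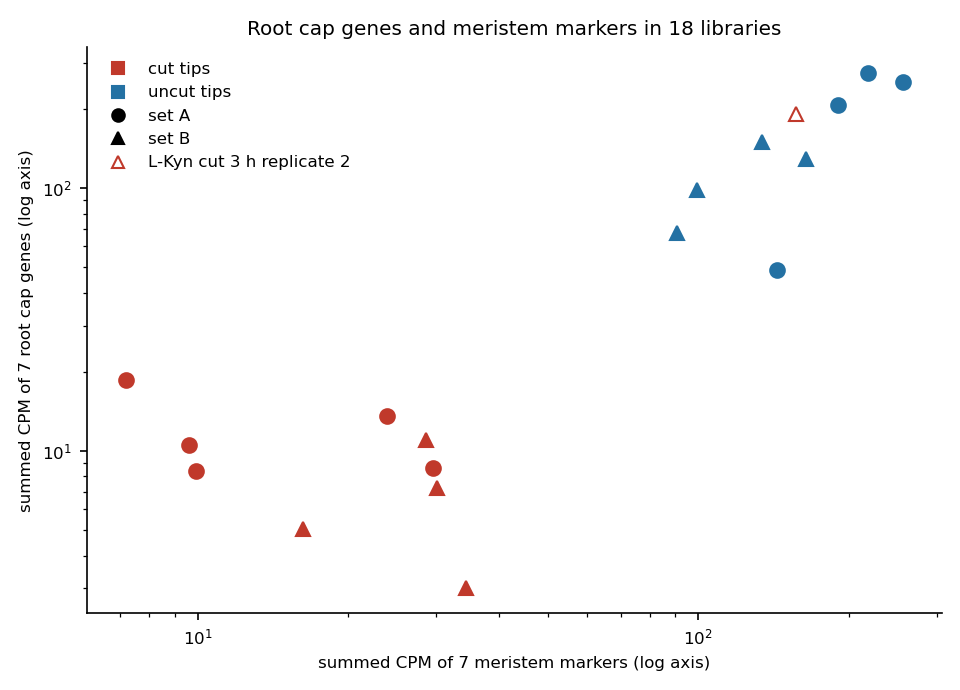
Summed level of the 7 root cap genes against that of 7 meristem markers in CPM (both axes log) in each library, with circles for set A, triangles for set B, red for cut and blue for uncut. Cut libraries have 3.02 to 18.7 CPM of cap genes and uncut ones 48.9 to 275 CPM, and the doubted library (open triangle, 192 and 157 CPM) lies among the uncut libraries.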

How the data were processed

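The 18 root tip libraries were made with a kit that reads transcript 3′ ends. The authors deposited raw read counts for each locus. The submitters' processing notes name Bowtie2, HTSeq, DESeq2 and TAIR10, without versions or a strand setting. The 3 lines that name no gene (46.4% to 83.2% low quality, 3.75% to 15.1% no feature and 0.0918% to 0.329% ambiguous) were left out. Groups follow the titles, and since nothing says that replicates came from separate seedlings, p-values cover only library-to-library spread, technical spread included.

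Comparisons were contrasts in 1 edgeR 4.0.16 quasi-likelihood fit (R 4.3.3, limma 3.58.1) to all 18 libraries, with TMM factors, filterByExpr by group (16354 genes, or 16934 without the doubted library) and Benjamini-Hochberg adjustment over all genes at 0.05. The fit was also run on data simulated from its own means and spreads, and no result given here rests on that run. The SE is the log2 fold change over the root of F. Counting intervals are exact 95% limits of the ratio of pooled counts, and floors are 3 counts, and both cover counting error only. Likeness uses log2 CPM with a prior count of 2. Alternatives were DESeq2 1.42.0, RLE factors, no filter, a mean of 5 CPM, a replicate block, set terms, fewer groups and each library left out. Figures used matplotlib 3.10.9.

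All members are reported whatever their values, of the lists any called gene may be named, and PIN3, BFN1 and genes named without a call were chosen after their values were seen. Members and lists were chosen with earlier results of these data known. Symbols come from RefSeq (TAIR10.1, 21793 loci matched), where the locus of RCPG has no symbol and its published name is used. In that assembly the longest exact stretch that a member's transcript shares with any other place is 35 bases (SMB), found with BLAST 2.17.0, and no member overlaps another annotated gene. Coordinates are not used here.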

Additional observations from a re-analysis of the deposited data

How the results depend on the processing

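The counts of members called moved with the setting. Beside each stands the share of all genes called in the same direction. In mock cut against mock uncut tips at 3 h (4 called, 5.9%) they were 2 with only the groups compared (0.939%), 1 within set B (0.292%) and 1 to 4 with a library left out (1.99% to 9.55%). In mock cut against mock uncut tips at 6 h (0, 0%) they were 1 with DESeq2 (0.11%) and 2 in the set-matched fit (a set term, and the doubted library left out, 0.366%), with the spread estimated without that library (an alternative added after seeing the data, 0.142%) and within set A (5.19%). In L-Kyn cut against L-Kyn uncut tips at 6 h (2, 0.263%) they were 4 with no filter (0.43%), 5 with a set term (0.893%) or with the spread estimated without the doubted library (1.56%), 6 in the set-matched fit (3.1%), with only the groups compared and within set A (2.93% each), and 0 to 1 with a library left out (0% to 0.0355%). In L-Kyn cut against L-Kyn uncut tips at 3 h (0, 0%) they were 5 in the set-matched fit (1.1%) and 0 to 3 with a library left out (0% to 0.579%). In L-Kyn cut against mock cut tips at 3 h (0, 0%) they were 2 with DESeq2 (0.183%), 1 with no filter (0.0679%) and 0 to 5 with a library left out (0% to 1.48%), and the difference of cut effects at 3 h gave 0 to 5 likewise (0% to 0.962%). The cause of these moves was not tested.

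Replicate numbers did not pair the samples: the deviations of same-numbered libraries correlated at -0.25 to 0.13 over 20 pairs, 1 of them above 0.1. With a replicate block, L-Kyn cut against L-Kyn uncut tips at 6 h had 0 members called, where 0.0183% of all genes were lower and 0.0489% higher. In that edgeR fit CEL5 was at an adjusted p of 0.0508 and SMB at 0.0553.

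Fold changes of members were recomputed under every alternative for the 6 comparisons of cut with uncut and of L-Kyn uncut with mock uncut tips, and there signs changed only where no call was made with all libraries. For the other comparisons the alternatives give counts of calls, and without the doubted library SMB was -0.15 (3.30 with it) and BRN2 -1.41 (1.18) in L-Kyn cut against mock cut tips at 3 h. CEL3 in mock cut against mock uncut tips at 3 h was 3.20 with a set term and 3.14 set-matched. In L-Kyn cut against L-Kyn uncut tips at 3 h, set-matched values were -2.36 for BRN2, -1.42 for CEL3 and -7.33 for RCPG, and BRN2 was -0.046 with a replicate block. The value of RCPG comes from 0 counts in cut tips, so its size is not a measured one. In L-Kyn uncut against mock uncut tips at 3 h, BRN2 was 0.41 with a set term or set-matched and 0.36 within set B, CEL3 was 0.039 with DESeq2, 4.82 with a set term and 4.76 set-matched, and RCPG was -1.14 with a set term or set-matched and -1.16 within set B. At 6 h FEZ was 0.14 with a replicate block, 0.57 with a set term, 0.58 set-matched and 0.53 within set A.

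With a library left out, log2 fold changes that changed sign ran, in L-Kyn cut against L-Kyn uncut tips at 3 h -4.54 to 0.91 for BRN1, -2.38 to 1.12 for BRN2, -1.45 to 1.12 for CEL3, -5.15 to 0.79 for CEL5, -6.41 to 0.55 for FEZ, -7.33 to 1.73 for RCPG and -3.74 to 0.66 for SMB, and in L-Kyn uncut against mock uncut tips at 3 h -0.89 to 0.28 for BRN1, -0.82 to 0.51 for BRN2, -0.77 to 1.50 for CEL3, -1.17 to 0.33 for CEL5, -0.95 to 0.060 for FEZ and -0.34 to 1.87 for RCPG, and in L-Kyn uncut against mock uncut tips at 6 h -0.43 to 0.57 for FEZ and -0.015 to 2.20 for RCPG. The lowest values of FEZ and RCPG in L-Kyn cut against L-Kyn uncut tips at 3 h come from 0 counts in cut tips. Their size is thus not a measured one. Depth limits the low genes: CEL3 had at most 5.98 CPM in a library, and levels under the floor of 0.620 to 2.29 CPM cannot be told from 0.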
